A study of Saccharomyces cerevisiae with 6 samples.

Results

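Saccharomyces cerevisiae takes up glucose and fructose through a large family of plasma membrane carriers encoded by the HXT genes, and 10 genes of this system were followed here: the carriers HXT1, HXT2, HXT3, HXT4, HXT5, HXT8, HXT13 and HXT17 and the glucose sensors SNF3 and RGT2. They were taken by gene symbol from the 5449 S. cerevisiae genes that the array annotation names. They were listed by name, with earlier results of these data known. Each gene was read from the probe set with the highest mean over all arrays, and 8 of the 10 genes had a single probe set.

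The carriers differ in their affinity for hexoses. Hxt1 and Hxt3 bind glucose weakly and work while sugar is plentiful, Hxt2 and Hxt4 bind it tightly and are made when glucose is low, and Hxt5 has a moderate affinity and is known from slowly growing and starved cells. Hxt8 is a minor carrier, and Hxt13 and Hxt17 belong to a branch of the family that carries the sugar alcohols mannitol and sorbitol. Snf3 and Rgt2 look like carriers but act as receptors, Snf3 for low and Rgt2 for high glucose: when they bind the sugar, the Mth1 and Std1 proteins are degraded, the repressor Rgt1 leaves the HXT promoters and the genes are transcribed.

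The evolved strain P5-EM was compared with its parent, the commercial wine strain P5. P5-EM was isolated after mutagenesis with ethyl methanesulfonate and about 200 generations of serial batch culture at 12 °C, and is 1 evolved strain. RNA came from 3 independent cultures of P5-EM and 3 of P5. All of them fermented SM1, a synthetic grape must whose sugar is glucose and fructose in equal parts, at 12 °C, and were sampled at 96 h, in exponential growth. The sugar left in the must at sampling was not analysed here, and with a single time the strain and the stage of its fermentation cannot be told apart. Values are log2 normalized hybridisation signals per array. They are relative to the rest of the RNA on the array, so that less RNA of a gene per cell and fewer cells that make it cannot be told apart.

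P5-EM replicate 1 stood apart from the other arrays. Over the 5498 probe sets tested its correlation with the other P5-EM arrays was 0.953 and 0.967, against 0.990 between P5-EM replicates 2 and 3 and 0.992 to 0.996 among the P5 arrays. The median SD of a probe set was 0.22 in P5-EM and 0.12 in P5. The probe sets for Schizosaccharomyces pombe, whose genes these cells lack, gave the background of each array, and 9 of the 10 genes lay above its 95th percentile on all 6 arrays. HXT13 was above it on all 3 P5-EM arrays and on 2 of the 3 P5 arrays.

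HXT3 gave the strongest signal and HXT13 the weakest in both strains, and HXT1 came second in both. In P5-EM the order of the mean signals was HXT3, HXT1, RGT2, HXT5, SNF3, HXT4, HXT17, HXT8, HXT2 and HXT13. In P5 it was HXT3, HXT1, HXT5, RGT2, HXT4, SNF3, HXT2, HXT17, HXT8 and HXT13, so that 3 genes kept their rank. HXT5 stood above RGT2 in P5 and below it in P5-EM, and HXT2 above HXT17 in P5 and below it in P5-EM. Some neighbours in the order could not be separated, since their arrays overlapped: SNF3 and HXT4, HXT4 and HXT17, and HXT8 and HXT2 in P5-EM, and HXT2 and HXT17, and HXT17 and HXT8, in P5. The signal of a probe set also depends on its probes, so this is an order of signals and not of transcript amounts.

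**Figure D1:**
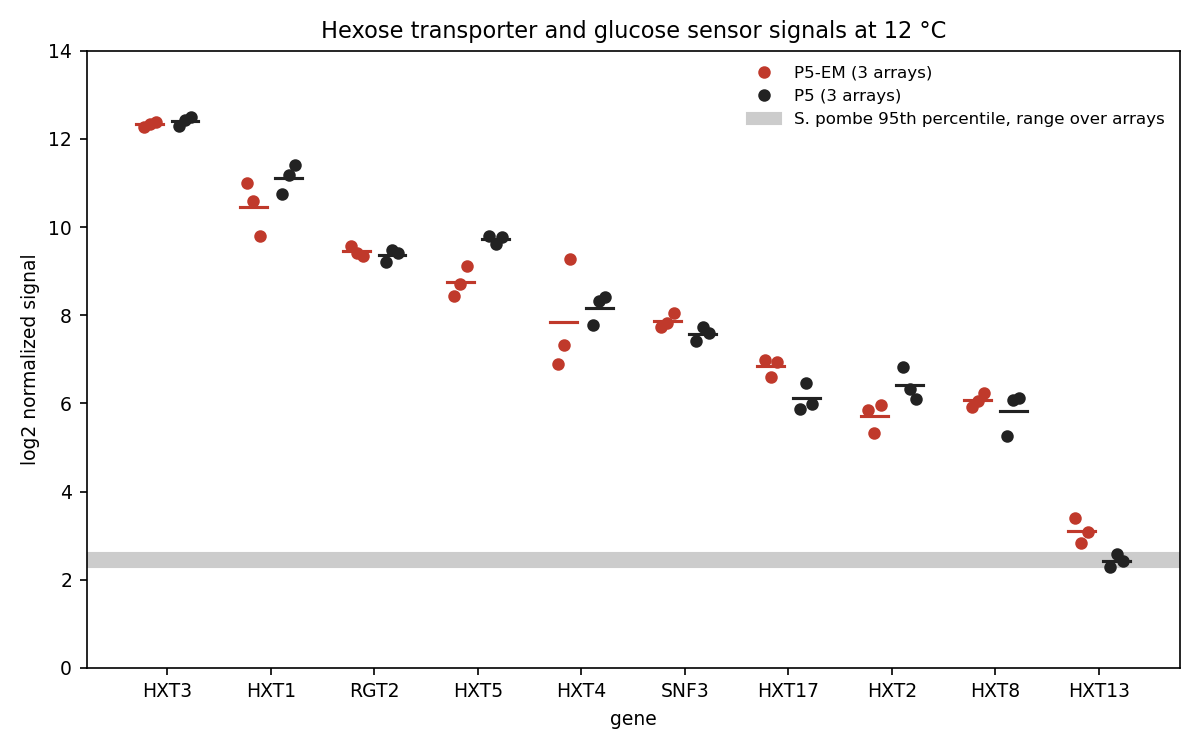
Log2 normalized signal of the 10 genes on each array, with P5-EM (3 arrays) to the left of P5 (3 arrays), and the mean of each strain as a line. HXT3 lies at the top with means of 12.33 in P5-EM and 12.41 in P5, HXT13 at the bottom with 3.11 and 2.43, and the P5-EM arrays of HXT4 are the most spread.

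Of the 10 genes, 3 passed the test between the strains (limma, adjusted p of 0.05 or less at any fold). HXT13 and HXT17 were higher and HXT5 was lower in P5-EM. The same threshold was passed by 13.9% of all probe sets tested, 6.09% higher and 7.78% lower in P5-EM. The 3 P5-EM arrays did not overlap the 3 P5 arrays in 5 of the 10 genes (HXT2, HXT5, HXT13, HXT17 and SNF3), and in 45.7% of all probe sets. The median log2 fold change of P5-EM over P5 was 0.01 over the 10 genes and -0.04 over all genes. These calls depended on single arrays. Without P5 replicate 2 or without P5 replicate 3, limma called 0 of the 5498 probe sets (1318 and 1222 had an unadjusted p under 0.05), and hence 0 of the 10 genes (3 and 4 by that measure). Without P5-EM replicate 2 or without P5 replicate 1 it called 99 and 140 probe sets, and also 0 of the 10 genes (3 by that measure in each). Without P5-EM replicate 3 it called 1006 probe sets and 2 of the 10 genes. Without P5-EM replicate 1 it called 1462 probe sets and 4 of the 10 genes.

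**Figure D2:**
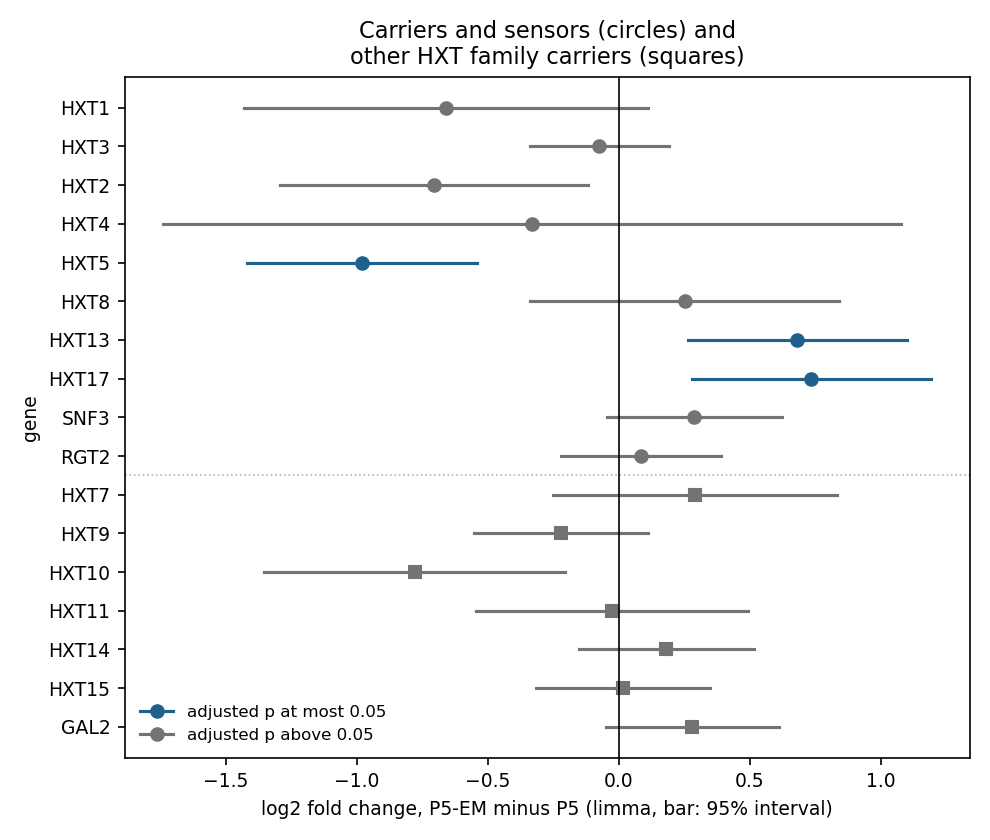
Log2 fold change of P5-EM over P5 for the 10 genes (circles) and for 7 other HXT family carriers (squares), with the 95% confidence interval from limma (bars). Among the 10 genes the intervals of HXT2, HXT5, HXT13 and HXT17 leave out 0, and HXT5, HXT13 and HXT17, in blue, had an adjusted p under 0.05.

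HXT3 is a major low-affinity carrier of wine fermentation. Its signals were 12.27, 12.34 and 12.39 in P5-EM and 12.30, 12.42 and 12.50 in P5. The arrays of the strains overlapped, and the log2 fold change was -0.07 (SE 0.11, 95% confidence interval -0.34 to 0.19, adjusted p = 0.661). An SD as large as that of HXT3 in P5-EM (0.06) was found in 92.2% of probe sets, and as large as that in P5 (0.10) in 60.1%.

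HXT1, the low-affinity carrier induced most by high glucose, was spread more widely. It read 11.00, 10.58 and 9.79 in P5-EM and 10.75, 11.19 and 11.40 in P5. P5-EM replicate 3 was below every other array, while P5-EM replicate 1 fell among the P5 arrays. The log2 fold change of -0.66 (SE 0.32, interval -1.43 to 0.11) did not pass the test (adjusted p = 0.198). Without P5-EM replicate 1 it was -0.93 with an adjusted p of 0.0324, and without P5-EM replicate 3 it was -0.33 with an adjusted p of 0.344.

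The high-affinity carrier HXT2 had signals of 5.84, 5.32 and 5.97 in P5-EM, against 6.82, 6.33 and 6.09 in P5. All P5-EM arrays lay below all P5 arrays. The mean log2 signal was 5.71 ± 0.35 in P5-EM and 6.42 ± 0.37 in P5 (SD, n = 3 each), a log2 fold change of -0.70 (SE 0.25) that did not pass the adjusted test in limma (adjusted p = 0.101).

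HXT4, also a high-affinity carrier, gave 6.90, 7.33 and 9.28 in P5-EM and 7.77, 8.32 and 8.41 in P5. P5-EM replicate 3 was above every P5 array and the other P5-EM arrays below every one. Its SD in P5-EM, 1.27, was reached by 0.873% of probe sets. The log2 fold change of -0.33 (SE 0.59, interval -1.74 to 1.08, adjusted p = 0.713) turned on single arrays: it was 0.14 without P5-EM replicate 1, and -1.05 with an adjusted p of 0.0350 without P5-EM replicate 3.

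The low- and high-affinity carriers were set against each other within each array, as the mean log2 signal of HXT1 and HXT3 minus that of HXT2 and HXT4. This difference was 5.26, 5.14 and 3.47 in P5-EM and 4.22, 4.48 and 4.70 in P5. P5-EM replicates 1 and 2 thus leaned further toward the low-affinity carriers than any P5 array, and P5-EM replicate 3 less far than any. The means were 4.62 ± 1.00 in P5-EM and 4.47 ± 0.24 in P5 (SD, n = 3 each), so that the gap of 0.15 between the strains was smaller than the spread among the P5-EM arrays. Without P5-EM replicate 3 the gap was 0.73, and without P5-EM replicate 1 it was -0.17.

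Of these 4 carriers, HXT1 and HXT4 had the widest spread in P5-EM. The log2 signal of HXT1 exceeded that of HXT4 by 4.09, 3.25 and 0.52 in P5-EM, and by 2.97, 2.87 and 3.00 in P5. The P5 arrays were close to each other (SD 0.07), unlike those of P5-EM (SD 1.87). On P5-EM replicate 3 the high-affinity carrier HXT7, which is not among the 10 genes and whose probe set may also match its near-identical neighbour HXT6 (this was not tested), was also high. It read 10.76, 10.91 and 11.61 in P5-EM and 10.71, 10.91 and 10.77 in P5. HXK2, the main hexokinase of cells growing on glucose, read 11.63, 11.11 and 10.29 in P5-EM and 10.48, 10.11 and 10.10 in P5. On P5-EM replicate 3 it was lowest among the P5-EM arrays and within the range of the P5 arrays. Over all probe sets tested, that array was the highest of P5-EM in 41.9% and the lowest in 27.2%. Whether the cultures had reached different sugar levels was not tested.

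**Figure D3:**
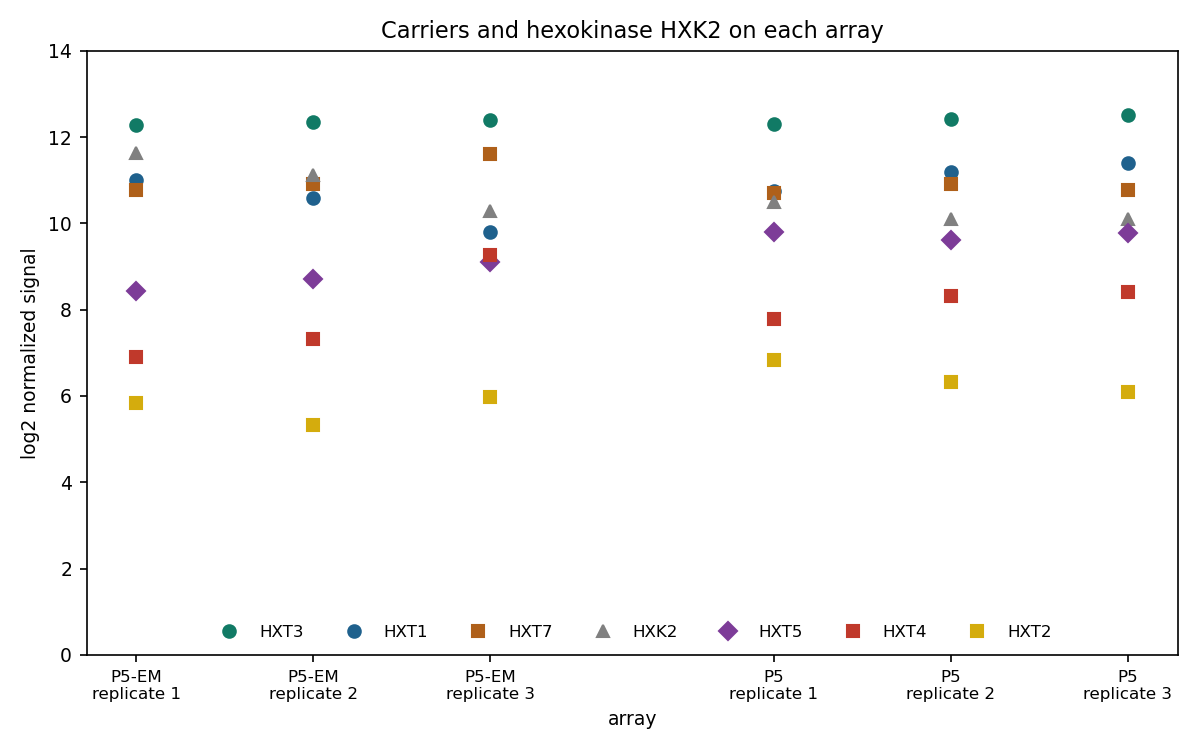
Log2 normalized signal of the low-affinity (HXT1, HXT3) and high-affinity (HXT2, HXT4, HXT7) carriers, of HXT5 and of the hexokinase HXK2 on each array, the P5-EM arrays left of the P5 arrays. On P5-EM replicate 3, HXT1 (9.79) and HXT4 (9.28) come within 0.52 of each other, while on the P5 arrays they lie 2.87 to 3.00 apart.

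HXT5 was the carrier called lower in P5-EM. This carrier of slow growth and starvation gave 8.43, 8.71 and 9.11 in P5-EM, against 9.79, 9.63 and 9.78 in P5. Every P5-EM array was below every P5 array, and the P5 arrays lay close together. The mean log2 signal was 8.75 ± 0.34 in P5-EM and 9.73 ± 0.09 in P5 (SD, n = 3 each), a log2 fold change of -0.98 (SE 0.18, interval -1.42 to -0.54, adjusted p = 0.0233 in limma), or a signal 1.97 times higher in P5. The gene passed without P5-EM replicate 3 (-1.16, adjusted p = 0.0132) and without P5-EM replicate 1 (-0.82, adjusted p = 0.00632). The call was lost without P5-EM replicate 2 (adjusted p = 0.0803), and without P5 replicate 1, 2 or 3 (0.0897, 0.0914 and 0.109), at log2 fold changes of -0.95 to -1.03. HXT5 lies beside HXT1 on chromosome VIII in the RefSeq annotation of S. cerevisiae, and HXT1 itself did not pass the test.

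The minor carrier HXT8 gave 5.93, 6.06 and 6.24 in P5-EM and 5.26, 6.08 and 6.13 in P5. The arrays overlapped apart from the low P5 replicate 1. The log2 fold change of 0.25 (SE 0.25, adjusted p = 0.496) was -0.031 without that array.

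HXT17 and HXT13, of the sugar alcohol branch, were the genes called higher in P5-EM. HXT17 read 6.99, 6.61 and 6.95 in P5-EM, against 5.88, 6.46 and 5.99 in P5. Its arrays did not overlap, and the log2 fold change was 0.74 (SE 0.19, interval 0.28 to 1.19, adjusted p = 0.0498 in limma). The second probe set of HXT17, which takes no part in the count above, gave 6.88, 6.59 and 6.83 in P5-EM and 5.75, 6.17 and 5.78 in P5, and passed the test with a difference of 0.87 in log2 (SE 0.16, adjusted p = 0.0216). By its type it too may hold probes that match relatives, which was not tested.

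HXT13 was near background. It read 3.41, 2.83 and 3.09 in P5-EM, against 2.28, 2.58 and 2.42 in P5, where the background of the arrays was 2.28 to 2.60. The arrays did not overlap, and the log2 fold change was 0.68 (SE 0.18, interval 0.26 to 1.10, adjusted p = 0.0481 in limma). The second probe set of HXT13 was above background on 1 of the 3 P5-EM arrays and on 0 of the 3 P5 arrays, with a log2 fold change of 0.48 that did not pass (adjusted p = 0.116).

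The calls of both genes lay close to the threshold. That of HXT17 was lost without P5-EM replicate 2 or 3 (adjusted p = 0.0829 and 0.0802) and without P5 replicate 1, 2 or 3 (0.146, 0.0798 and 0.183). That of HXT13 was lost without the same arrays (0.0647 and 0.0676, and 0.145, 0.123 and 0.170). The log2 fold changes stayed between 0.62 and 0.91 for HXT17 and between 0.61 and 0.82 for HXT13 in these 5 fits. By their type, the probe sets used for both genes may hold probes that match the other gene or relatives such as HXT15 and HXT16. The same holds for the second probe set of HXT17. The second one of HXT13, which did not pass, is not of such a type. The probe set of HXT15 is of such a type too. How much of each signal comes from such matches was not tested. HXT15, of the same branch, had log2 signals of 4.60, 4.22 and 4.54 in P5-EM and 4.54, 4.34 and 4.43 in P5, a log2 fold change of 0.02 (adjusted p = 0.945), and HXT16 was not analysed here.

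After these values were seen, the genes next to each of the 10 genes and to HXT7 were looked up in the RefSeq annotation. Of the 11 measured, 3 passed the test, all higher in P5-EM. Of all probe sets tested, 13.9% passed in either direction and 6.09% were higher. DSF1, beside HXT13, encodes a protein that resembles mannitol dehydrogenase, the enzyme that oxidises mannitol to fructose. It gave 9.82, 9.44 and 9.75 in P5-EM and 8.79, 8.45 and 8.34 in P5, with no overlap and 1.14 as its log2 fold change (SE 0.17, adjusted p = 0.0137). By its type, the probe set of DSF1 may hold probes that match relatives elsewhere in the genome, and this was not tested. MAN2, which lies on the other side of HXT17, was not among the genes measured. YNR071C, beside HXT17, resembles aldose epimerases. It gave 8.17, 7.92 and 7.96 in P5-EM and 6.77, 7.15 and 6.94 in P5, also with no overlap and 1.06 as its log2 fold change (SE 0.14, adjusted p = 0.0109). Both calls were lost without P5 replicate 2 (adjusted p = 0.0792 for DSF1 and 0.0653 for YNR071C) or P5 replicate 3 (0.0840 and 0.0768), where no probe set passed. The other was YDR341C, beside HXT7 (0.43, adjusted p = 0.0437), whose call was lost without P5-EM replicate 2 (0.130) or any 1 P5 array (0.121 to 0.170).

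**Figure D4:**
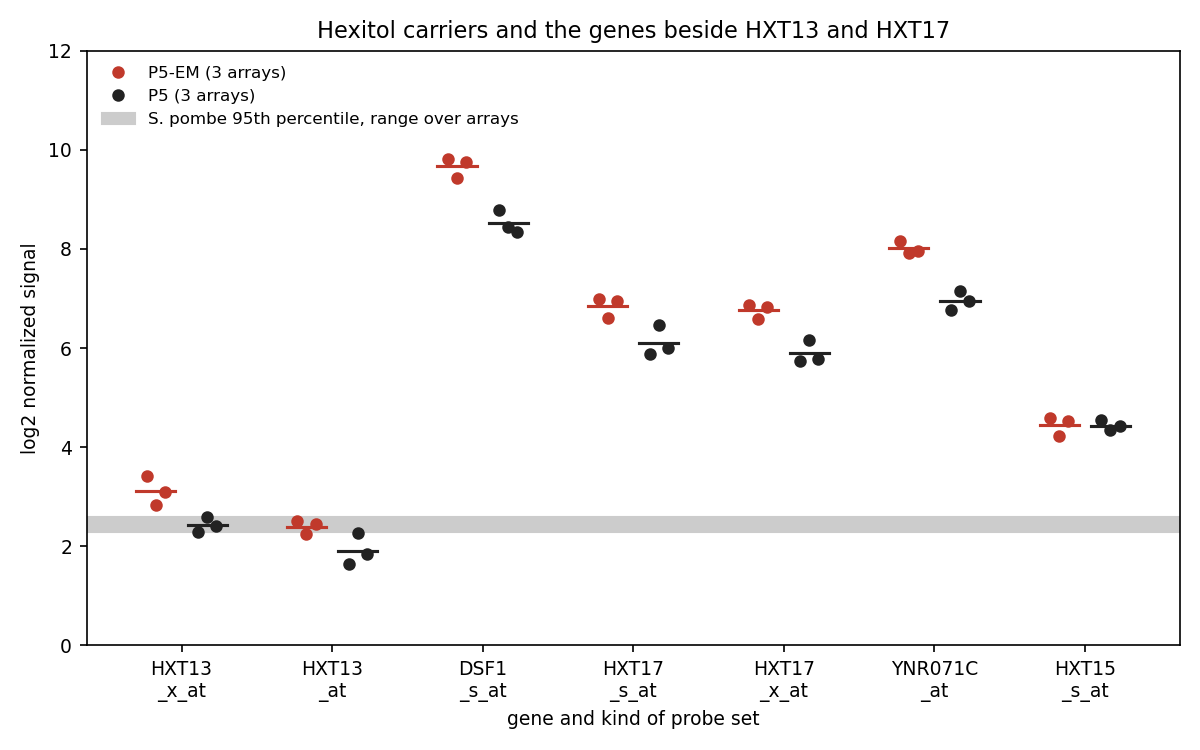
Log2 normalized signal of HXT13 and HXT17 (both probe sets of each), of their neighbours DSF1 and YNR071C, and of HXT15, with P5-EM left of P5 and the mean of each strain as a line. The P5-EM arrays of DSF1 (9.44 to 9.82) and YNR071C (7.92 to 8.17) lie above all P5 arrays of the same gene, the HXT13 probe sets lie near the background band (2.28 to 2.60), the second one below it on all P5 arrays, and the strains overlap in HXT15.

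Neither sensor passed the test. SNF3, the receptor for low glucose, gave 7.74, 7.83 and 8.06 in P5-EM and 7.42, 7.73 and 7.60 in P5. Its P5-EM arrays were all above the P5 arrays, and the log2 fold change of 0.29 (SE 0.14, interval -0.05 to 0.62) did not pass (adjusted p = 0.193). RGT2, the receptor for high glucose, gave 9.58, 9.41 and 9.35 in P5-EM and 9.20, 9.47 and 9.42 in P5. These arrays overlapped, with a log2 fold change of 0.09 (SE 0.13, interval -0.22 to 0.39, adjusted p = 0.661).

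The same steps of sugar uptake were read in 6 further gene lists, of which 53 of 57 genes were measured. The test was passed by 3 of them, 2 higher and 1 lower in P5-EM, and by 13.9% of all probe sets tested. In limma 1866 of all 5449 genes had an unadjusted p under 0.05. The methods' t-test called 0 of the 53 after Benjamini-Hochberg adjustment (14 at an unadjusted p under 0.05). Of the other HXT family carriers, 7 of 10 were measured and 0 passed in limma (1 at an unadjusted p under 0.05, median log2 fold change 0.02). The lowest adjusted p was that of the minor carrier HXT10, with mean log2 signals of 4.23 in P5-EM and 5.01 in P5 (-0.78, adjusted p = 0.0747). It passed without P5-EM replicate 1 (-0.54, adjusted p = 0.0419) or P5-EM replicate 3 (-0.99, adjusted p = 0.0280), and was -0.38 after quantile normalization (adjusted p = 0.0991). GAL2, the galactose permease, had 0.28 (adjusted p = 0.198).

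Downstream of the sensors, 0 of the 15 genes of the signalling to Rgt1 passed in limma (2 at an unadjusted p under 0.05, median log2 fold change 0.14). TUP1 and CYC8, which encode the corepressor that works with Rgt1, had log2 fold changes of 0.51 (adjusted p = 0.0716) and 0.38 (adjusted p = 0.113). CDC34, the ubiquitin-conjugating enzyme of the complex that marks Mth1 and Std1, had -0.55 (0.183), and -0.25 without P5-EM replicate 1 (0.149). The Snf1 kinase, which relieves glucose repression of high-affinity carriers, and its regulators also had 0 of 10 genes called in limma. At an unadjusted p under 0.05 were 4 of these 10, and 1866 of all 5449 genes. The median was -0.05, with SIP2, a subunit of the kinase, at 0.35 (0.0863) and TOS3, a kinase that activates it, at -0.39 (0.105).

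Of the 4 genes that phosphorylate hexoses 0 passed in limma (2 at an unadjusted p under 0.05, as were 1866 of all 5449 genes). In 3 of them the arrays of the strains did not overlap, as in 45.7% of all probe sets. Their median log2 fold change was 0.48, against -0.04 for all genes. HXK1, a hexokinase, had 12.14, 12.17 and 12.31 in P5-EM, against 11.87, 11.77 and 11.61 in P5, and just missed the threshold (0.46, adjusted p = 0.0515). Without P5-EM replicate 1 it passed (0.49, adjusted p = 0.0232). EMI2, a glucokinase, had 0.50 (0.0728) and GLK1, a further glucokinase, had 0.19 (0.294). HXK2 had 0.78 (adjusted p = 0.148), which was 1.14 and passed without P5-EM replicate 3 (adjusted p = 0.0230) and was 0.47 without P5-EM replicate 1 (adjusted p = 0.175).

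Among the 13 genes for the export and endocytosis of carriers, 1 was called lower in P5-EM and 0 higher (median -0.07). Of all probe sets tested, 7.78% were called lower and 6.09% higher. CSR2, an adaptor of the ubiquitin ligase Rsp5 that takes part in removing high-affinity hexose carriers from the cell surface, read 7.74, 8.06 and 8.21 in P5-EM, against 8.90, 9.43 and 9.17 in P5. Its log2 fold change was -1.17 (SE 0.19, adjusted p = 0.0163), and the call was lost without P5-EM replicate 2 (0.0631), P5 replicate 2 (0.0792) or P5 replicate 3 (0.0930).

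Of the other sugar and glycerol permeases 4 of 5 were measured, and 2 were called higher in P5-EM, as were 6.09% of all probe sets tested. MAL31, a maltose permease, gave 9.67, 9.81 and 9.81 in P5-EM and 8.64, 9.09 and 9.19 in P5 (0.79, SE 0.17, adjusted p = 0.0318). MAL11, a permease for maltose and other alpha-glucosides, gave 9.22, 9.04 and 9.17 in P5-EM and 8.60, 8.71 and 8.58 in P5 (0.51, SE 0.11, adjusted p = 0.0322). Both calls were lost without P5-EM replicate 2 (adjusted p = 0.0977 for MAL31 and 0.0757 for MAL11) and without any 1 P5 array (0.0703 to 0.0984 for MAL31 and 0.101 to 0.142 for MAL11). MPH2 and STL1, of the same list, did not pass in limma. MPH2 went the other way (-0.41, adjusted p = 0.0648), with every P5-EM array below every P5 array. STL1 had 0.44 (adjusted p = 0.166).

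For the 3 genes that passed, the most alike patterns were sought as the lowest root mean square difference of log2 signals, centred per gene, over the 6 arrays. For HXT5 these were JJJ3 (0.0726), SRP40 (0.0776) and NOP4 (0.0857). For HXT13 they were MRPL4 (0.0735), GAL1 (0.0768) and YPR063C (0.0790), and for HXT17 MRPL4 (0.0774), ART5 (0.0939) and ISM1 (0.100). The 6 arrays share the contrast between the strains, so that genes with a like fold change come out near each other.

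**Figure D5:**
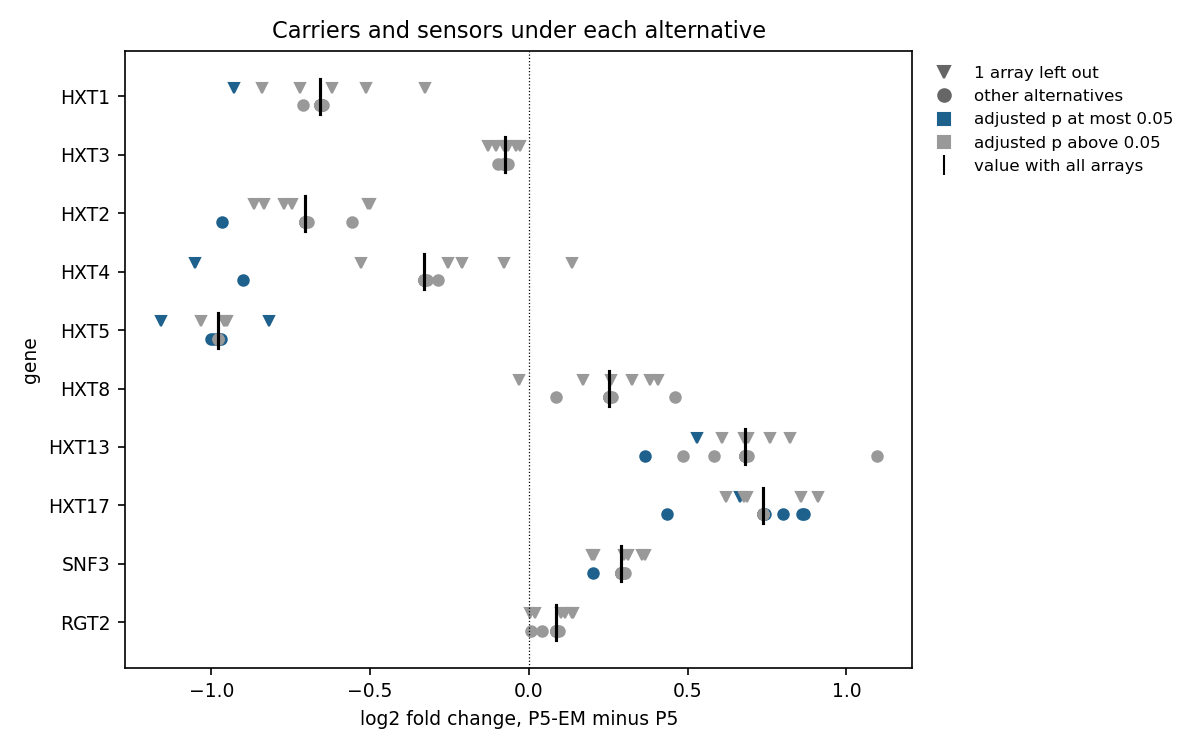
Log2 fold change of P5-EM over P5 for each of the 10 genes as reported and under each alternative processing or left-out array, in blue where the adjusted p was 0.05 or less and in grey otherwise. HXT5 stays below 0 and HXT13 and HXT17 above 0 in every fit drawn, while HXT4 (-1.05 to 0.14) and HXT8 cross 0.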

How the data were processed

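RNA of 3 P5-EM and 3 P5 cultures, amplified before labelling, was hybridised to Affymetrix Yeast Genome 2.0 arrays, 1 per culture. Per the labels, the authors used GCOS, RMA and Partek and deposited one log2 value per probe set and array, which RMA had corrected for background and normalized between arrays. Replicates were not pooled, and the values were used without further change. The median over all probe sets of the table was 3.89 on P5-EM replicate 1, against 4.59 to 4.87 on the other arrays. Over the tested probe sets the medians were 7.89 to 7.97. After quantile normalization of these, HXT13 had a log2 fold change of 1.10 (adjusted p = 0.0579 in limma). RMA compresses differences near background, and the small number of arrays limits the precision.

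Of 10928 probe sets, 5498 carry exactly 1 S. cerevisiae gene in the annotation (5449 genes) and were tested. Left out were 1747 S. pombe probe sets, 213 controls and 3470 not listed. The symbols of 12 probe sets were updated through RefSeq. The strains were contrasted with limma 3.58.1 in R 4.3.3 (lmFit, eBayes, two-sided) without covariates, with Benjamini-Hochberg adjustment over the 5498 probe sets. Calls are adjusted p values of at most 0.05, whatever the fold. Fold changes are P5-EM minus P5 in log2. The script was tested on simulated data.

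The 10 genes and the gene lists were chosen with earlier results of these data known. All 10 were named, with, from each list, the genes called or otherwise up to 4 with the lowest adjusted p (not all of these are printed), and the 3 genes most like each called gene. Neighbouring genes, HXT7, HXT15, MPH2 and STL1 were added after values were seen. The list genes HXT6, HXT12, HXT16 and MPH3, promoter motifs and protein sequences were not analysed here.

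Alternatives were an intensity trend, array weights, the methods' t-test, other normalizations, background filters, all probe sets of the table, other probe sets of a gene, a replicate block and each array left out in turn.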

Additional observations from a re-analysis of the deposited data

How the results depend on the processing

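All counts are of calls at an adjusted p of 0.05 or less. Against 763 probe sets, 3 of the 10 genes and 3 list genes in the reported test, array quality weights called 3222, 7 and 26. The weights did not converge and gave P5-EM replicate 2 a weight of 15.3, against 0.103 to 1.71 for the other arrays. The methods' t-test called 163, 0 and 0 (1573, 3 and 14 had an unadjusted p under 0.05), and 190, 0 and 1 when adjusted over the probe sets that differed at least 2-fold. Of the 10 genes, an intensity trend called 1 and a fit over all probe sets of the table called 1. With the replicate number as a block 208 probe sets, 0 of the 10 genes (4 at an unadjusted p under 0.05) and 1 list gene were called. Deviations of same-numbered arrays from their strain means had r = -0.03, -0.28 and -0.02. With 3 arrays per strain, these values cannot decide whether the numbers pair the cultures. With 1 array left out, the counts were 0 to 1462 probe sets, 0 to 4 of the 10 genes and 0 to 6 list genes. At a difference of at least 2-fold, 216 probe sets were called (73 higher and 143 lower in P5-EM), 55 by the methods' t-test, 0 to 419 with 1 array left out, and 239 after quantile normalization (116 higher and 123 lower). The low- minus high-affinity difference between strains was 0.03 after quantile normalization, 0.31 with HXT5 counted as high affinity, and -0.17 to 0.73 with 1 array left out. With 1 array left out the log2 fold change ranged from -1.05 to 0.14 for HXT4, from -0.031 to 0.41 for HXT8 and from -0.056 to 0.13 for HXT15, which was -0.17 with array weights. HXT5 lost its call without the arrays named with it, with the methods' t-test (adjusted p = 0.0812) and with the block (0.0553), and its difference was under 2-fold, so that it was not among the probe sets of the t-test adjusted over those. HXT13 lost its call in 13 of 16 alternatives (adjusted p up to 0.170), with no value under the stricter background filter, and HXT17 in 9 of 17 (up to 0.183). The cause of these changes was not tested.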
